A study of Mus musculus with 6 samples.

Results

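Chondroitin sulfate proteoglycans of the brain matrix and the proteins that link them were followed across the cells of the mouse hypothalamus. The 9 genes were chosen by name, and all 9 were among the 16411 genes listed: the lecticans Bcan, Ncan, Vcan and Acan, the link proteins Hapln1 and Hapln2, the cross-linker Tnr, the receptor phosphatase Ptprz1 and the membrane proteoglycan Cspg5. Single-cell RNA-sequencing had been performed on the dissociated hypothalamus of male ob/ob mice, which lack leptin and are obese and diabetic. At 11 weeks of age, per the labels, a mouse received 3 µg of FGF1 R50E into a cerebral ventricle, and it was killed 5 days later. FGF1 R50E is a fibroblast growth factor 1 that carries the change named in its label. The labels name 6 such mice, and cells of 4 of them (mice 3, 4, 30 and 34) were in the table. Mice 12 and 37 had no cells there and were not analysed here. All 4 mice belonged to the same group, so no effect of the treatment was estimated, and the comparisons below are between cell types of the same animals.

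Lecticans are large proteoglycans that bind hyaluronan with one end and tenascin-R with the other. Link proteins clamp the lecticans to hyaluronan, and tenascin-R joins them into the lattice known as the perineuronal net, which wraps some neurons, and into the looser matrix around the other cells. The chondroitin sulfate chains on these proteins bind growth factors and are known to restrain axon growth.

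The deposited cells carried 9 types named by the authors, and their sums held 20151 cells in all, with 3005 to 7386 cells and 3299971 to 8856079 unique molecular identifiers (UMIs, counted molecules) per mouse. The median depth was 909 to 1066 UMIs per cell. Of 19954 barcodes, 194 occurred in more than 1 library. The authors' types were astrocytes, oligodendrocyte precursor cells (OPC), committed oligodendrocyte precursors (COP), oligodendrocytes, tanycytes, ependymal cells, endothelial cells, microglia and vascular leptomeningeal cells. No type was labelled as neurons, so the neurons that perineuronal nets surround were not measured here. Each name was checked against its markers, and the summed marker level was highest in the type of that name in all 9 cases, for example 13130 to 14165 counts per 1000000 UMIs (CPM) for 6 astrocyte markers in astrocytes against at most 5760 CPM in any mouse of another type. The endothelial label also held 2057 to 2592 CPM of 4 mural cell markers. Vascular leptomeningeal cells numbered 6, 12, 44 and 6 in mice 3, 4, 30 and 34, too few for a comparison, and the levels below leave them out. The other 8 types had at least 34 cells in every mouse.

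The lectican and link protein genes lie in pairs on the chromosomes (GRCm38.p6, positions from RefSeq). Bcan (ENSMUSG00000004892, chr3:87987531-88002175, minus strand) lies next to Hapln2 (ENSMUSG00000004894, chr3:88020558-88027511, minus strand), 18.4 kb apart with no gene between them. Vcan (ENSMUSG00000021614, chr13:89655309-89743027, minus) is followed in the same way by Hapln1 (ENSMUSG00000021613, chr13:89540529-89611832, plus) at 43.5 kb. Acan (ENSMUSG00000030607, chr7:79053226-79115099, plus) has the link protein gene Hapln3 at 1.9 kb, and Ncan (ENSMUSG00000002341, chr8:70093085-70120863, minus) has Hapln4 at 2.2 kb. Tnr (ENSMUSG00000015829, chr1:159523729-159931729, plus) is the longest of the 9 genes at 408 kb. Ptprz1 (ENSMUSG00000068748) spans chr6:22875315-23052916 and Cspg5 (ENSMUSG00000032482) chr9:110243783-110262576, both on the plus strand. Every lectican therefore lies beside a link protein gene, and levels of both neighbours are given with each pair.

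RefSeq windows of 250 bases before the start were matched for 8 of the 9 genes. The part of the window outside annotated gene sequence is shown for 3 genes whose transcripts lay mostly in the oligodendrocyte lineage: 178 bases for Hapln2 (oligodendrocytes), 210 for Tnr (COP and OPC) and the whole 250 for Acan (OPC and COP). The bases left out lie next to the start, so the printed run ends 72 bases before it for Hapln2 and 40 bases before it for Tnr. Capitals mark matches on either strand to ACAAAG (a SOX motif), CAGCTG (an E-box) or TTGGC (an NFI motif), and none of these matches overlaps another.
Hapln2, chr3:88027584-88027761, minus strand: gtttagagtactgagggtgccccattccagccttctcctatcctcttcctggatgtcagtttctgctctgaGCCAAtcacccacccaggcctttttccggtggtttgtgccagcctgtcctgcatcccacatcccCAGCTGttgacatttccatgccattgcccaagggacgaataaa
Tnr, chr1:159523519-159523728, plus strand: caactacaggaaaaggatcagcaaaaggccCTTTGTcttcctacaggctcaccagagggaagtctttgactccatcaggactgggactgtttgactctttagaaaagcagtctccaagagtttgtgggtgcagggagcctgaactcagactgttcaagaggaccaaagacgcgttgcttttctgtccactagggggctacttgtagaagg
Acan, chr7:79052976-79053225, plus strand: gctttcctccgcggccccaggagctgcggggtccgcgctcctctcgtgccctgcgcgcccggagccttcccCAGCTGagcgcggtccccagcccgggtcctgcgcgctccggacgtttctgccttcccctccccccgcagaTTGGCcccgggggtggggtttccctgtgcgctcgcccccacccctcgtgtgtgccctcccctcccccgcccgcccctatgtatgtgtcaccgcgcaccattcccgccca
The window of Tnr held 1 SOX motif, beginning 220 bases before the start. Hapln2 held 1 E-box at 115 bases and 1 NFI motif at 179 bases, and Acan held 1 E-box at 179 bases and 1 NFI motif at 109 bases. Such matches are common: of 32817 windows of the same length, 16.5% held the SOX motif, 13.0% the E-box and 41.5% the NFI motif. A match of letters is a description of the window and not a binding site.

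The first question was which cells held each transcript. Levels are given as CPM, the UMIs of a gene scaled to the total UMIs of the summed cells of a type in a mouse, and only the level of the same gene is compared between types. Bcan and Ptprz1 were high in several glia, Ncan and Cspg5 were highest in OPC, Vcan and Acan were high in OPC and COP, Tnr stood out in COP, and Hapln2 lay almost wholly in oligodendrocytes.

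**Figure D1:**
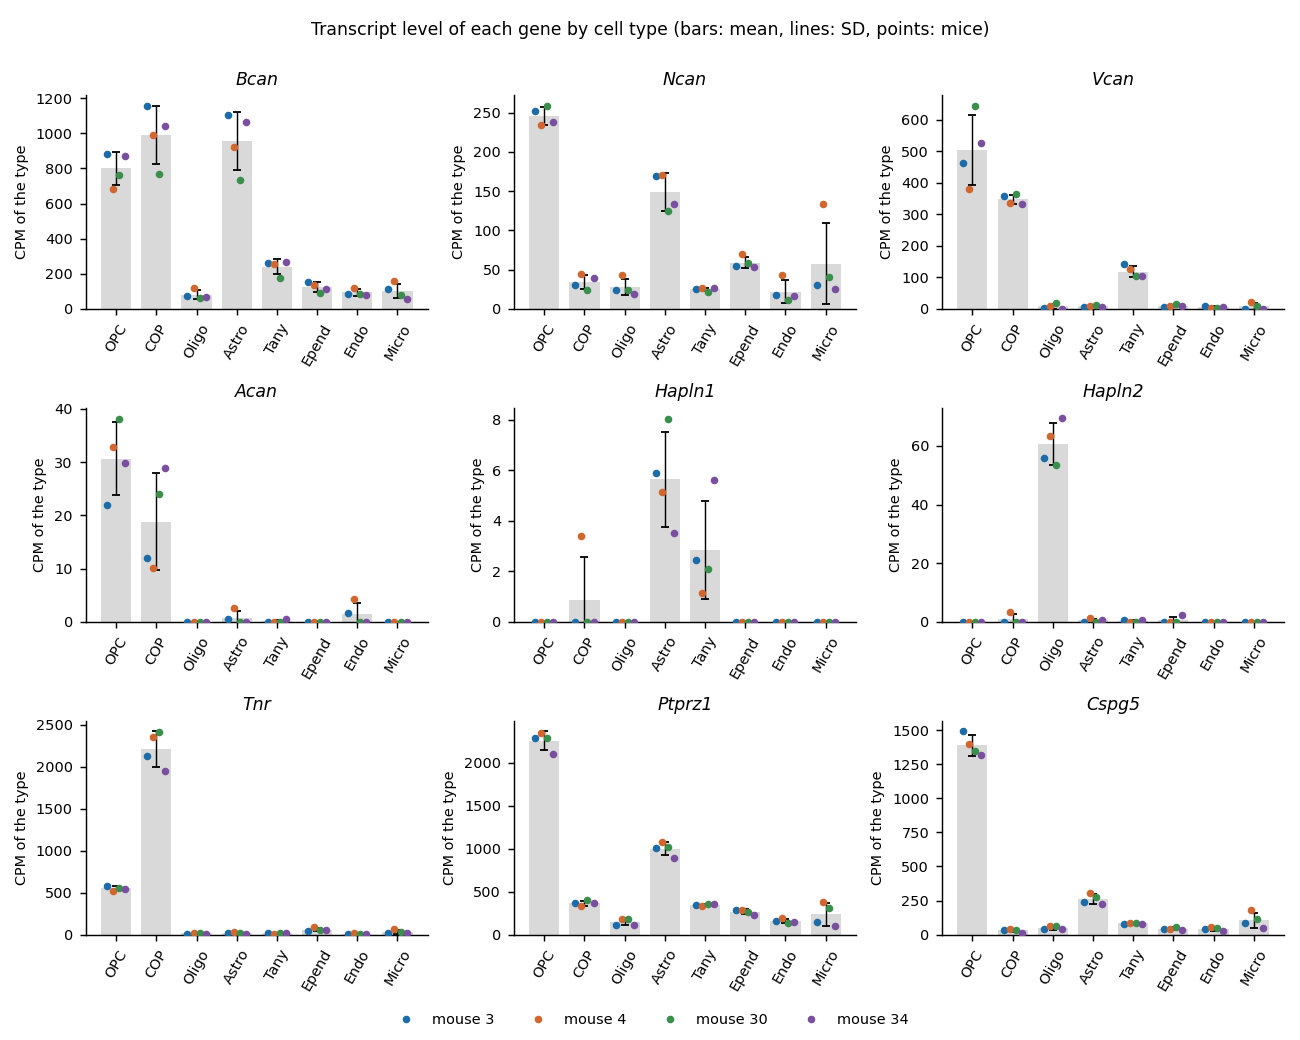
Level of each of the 9 genes (y axis, CPM, starting at 0 and scaled per gene) in 8 cell types (x axis). Bars are means of 4 mice, lines are SD and points are mice. Bcan reaches 956 CPM in astrocytes and 990 CPM in COP, while Tnr reaches 2209 CPM in COP and Hapln2 is near 0 outside oligodendrocytes.

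Brevican, encoded by Bcan, is a lectican made in the central nervous system. In astrocytes Bcan stood at 1102, 923, 732 and 1066 CPM in mice 3, 4, 30 and 34, and in COP at 1158, 991, 766 and 1043 CPM. In OPC it stood at 885, 685, 760 and 872 CPM in the same order. These 3 types overlapped in their ranges. Their means were 956 ± 168 CPM in astrocytes, 990 ± 165 CPM in COP and 800 ± 95.2 CPM in OPC (SD, n = 4 for each). Tanycytes came next at 241 ± 42.1 CPM, without overlap with OPC and lower in 4 of 4 mice. Ependymal cells followed at 124 ± 27.6 CPM, again without overlap. Microglia (102 ± 42.3 CPM), endothelial cells (93.5 ± 18.7 CPM) and oligodendrocytes (80.3 ± 26.5 CPM) were lowest and overlapped each other (SD, n = 4 for each). The step from COP to oligodendrocytes was the largest along the lineage for Bcan: oligodendrocytes held 73.3, 119, 61.7 and 66.7 CPM in mice 3, 4, 30 and 34.

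Neurocan, encoded by Ncan, is the lectican most typical of the developing brain. It was highest in OPC, at 252, 234, 259 and 239 CPM in mice 3, 4, 30 and 34, and reached 169, 171, 124 and 134 CPM in astrocytes. The ranges did not overlap. Ependymal cells held 59.1 ± 7.28 CPM (SD, n = 4), below every astrocyte sum and above every tanycyte sum (24.9 ± 1.93 CPM). COP held only 30.1, 44.1, 23.9 and 39.8 CPM in the order of the mice, so Ncan was low in the type where Bcan was high. COP, oligodendrocytes (27.6 ± 10.2 CPM), tanycytes and endothelial cells (22.0 ± 14.4 CPM) overlapped neighbour by neighbour in the order of means. Microglia ranged from 25.3 to 134 CPM, on 17 UMIs in all, and their mean of 57.5 CPM was 31.9 CPM without mouse 4.

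Versican, encoded by Vcan, is a lectican of many tissues that is found around axons in the brain. Vcan stood at 462, 381, 645 and 525 CPM in OPC and at 357, 336, 364 and 333 CPM in COP of mice 3, 4, 30 and 34, without overlap. Tanycytes held 141, 126, 104 and 103 CPM, also without overlap with COP. All other types lay far lower: ependymal cells at 9.58 ± 3.59 CPM, astrocytes at 8.65 ± 3.02 CPM, oligodendrocytes at 8.10 ± 7.86 CPM and endothelial cells at 5.81 ± 2.19 CPM (SD, n = 4 for each). Microglia held 8.12 ± 10.6 CPM, on 2 UMIs in all. These low types overlapped each other, and the mean of oligodendrocytes was 4.63 CPM without mouse 30. Vcan was thus low in astrocytes, where Bcan was high, and higher in tanycytes, which held less Bcan.

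Aggrecan, encoded by Acan, is the lectican most closely tied to perineuronal nets. It had few UMIs here. OPC held 40 Acan UMIs in all, at 21.9, 32.8, 38.2 and 29.8 CPM in mice 3, 4, 30 and 34, and COP held 22 UMIs, at 12.0, 10.2, 23.9 and 29.0 CPM. Astrocytes held 3 UMIs, 2 of them in mouse 4, endothelial cells 2 and tanycytes 1, and oligodendrocytes, ependymal cells and microglia held none. In the pooled sums the level in OPC was 53.3 times that in astrocytes (exact 95% interval 17.0 to 269; 133 times without mouse 4 and 33.5 times without mouse 34) and at least 55.5-fold higher than in oligodendrocytes, taking 3 counts over the group as the upper limit of a count of 0. The level was higher in OPC than in COP in 4 of 4 mice, the ranges overlapped, and the interval of the pooled ratio, 1.69 (0.983 to 2.99), takes in 1. Without mouse 34 the ratio was 2.06 and its interval (1.04 to 4.26) lay above 1. Intervals of this kind cover counting error only. A limit covers the counting error of the 0 alone and takes the other count as exact, so it is not a 95% bound on the ratio.

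The link proteins also had few UMIs. Hapln1, the cartilage link protein that is also a core part of perineuronal nets, had 28 UMIs in astrocytes (5.89, 5.14, 8.01 and 3.50 CPM in mice 3, 4, 30 and 34) and 18 in tanycytes (2.46, 1.13, 2.11 and 5.60 CPM). Its level was higher in astrocytes in 3 of 4 mice, the ranges overlapped, and the pooled ratio of 1.60 had an exact 95% interval of 0.856 to 3.08. Mouse 34 held 10 of the 18 tanycyte UMIs, and without it the ratio was 2.91 (1.24 to 7.60). COP held 1 UMI, and OPC, oligodendrocytes, ependymal cells, endothelial cells and microglia held none. For OPC a count of 0 allows up to 2.19 CPM and for oligodendrocytes up to 0.526 CPM. With the astrocyte count taken as exact, the level in astrocytes was thus at least 2.33-fold higher than in OPC. It was at least 9.71-fold higher than in oligodendrocytes. Without mouse 3 these limits were 1.40-fold and 5.17-fold. Hapln1 was therefore not detected in OPC, the type with the most Vcan, its neighbour on the chromosome, and both were detected in tanycytes.

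Hapln2, a link protein known from the matrix at nodes of Ranvier, was found in oligodendrocytes. It stood there at 56.1, 63.4, 53.5 and 69.4 CPM in mice 3, 4, 30 and 34 (351 UMIs), against 1 UMI in COP and 0 in OPC, endothelial cells and microglia. The pooled level was 78.6 times that in COP (exact 95% interval 14.0 to 3113). With the oligodendrocyte count taken as exact, it was at least 28.1-fold higher than in OPC and at least 34.6-fold higher than in endothelial cells. The ratio to COP was 50.9 without mouse 3, and COP held no Hapln2 UMI without mouse 4. Without mouse 34 the limits for OPC and endothelial cells were 18.0-fold and 20.8-fold. Oligodendrocytes held 98.3% ± 1.52 of all Hapln2 UMIs of a mouse (SD, n = 4). The neighbouring Bcan was near its lowest in these cells. Of the other link proteins, Hapln3, beside Acan, had its highest mean in OPC, at 19.7, 12.3, 25.5 and 16.1 CPM (25 UMIs), without a UMI in COP. Hapln4, beside Ncan, lay below 10 CPM in every mouse of the 8 types.

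Tenascin-R, encoded by Tnr, is the trimer that ties lecticans together. COP held 2127, 2353, 2407 and 1949 CPM of Tnr and OPC 585, 525, 556 and 544 CPM in mice 3, 4, 30 and 34. The COP mean of 2209 ± 212 CPM was 4.00 times the OPC mean of 552 ± 25.1 CPM (SD, n = 4 for each). Oligodendrocytes, the next stage, held 12.5, 19.9, 16.5 and 13.5 CPM. Tnr was thus highest in the middle type of the lineage and overlapped tanycytes in its range in the last. Ependymal cells held 42.0, 86.6, 59.1 and 57.7 CPM, above the 10.5 to 29.6 CPM of astrocytes and the 11.3 to 21.6 CPM of tanycytes. Microglia held 34.2 ± 22.6 CPM, on 11 UMIs in all. Endothelial cells were lowest at 9.45 ± 5.80 CPM.

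Ptprz1 encodes a receptor tyrosine phosphatase whose secreted form, phosphacan, is a chondroitin sulfate proteoglycan that binds tenascins and the growth factor pleiotrophin. It stood at 2284, 2349, 2288 and 2095 CPM in OPC and at 1010, 1078, 1017 and 896 CPM in astrocytes of mice 3, 4, 30 and 34, without overlap. COP (364 ± 26.4 CPM) and tanycytes (347 ± 10.5 CPM) overlapped, and ependymal cells (267 ± 27.5 CPM) lay below every tanycyte sum (SD, n = 4 for each). Endothelial cells held 160 ± 24.4 CPM and oligodendrocytes 151 ± 40.1 CPM. Microglia spread from 101 to 380 CPM. Ptprz1 was thus detected in every mouse of all 8 types, with the highest level in OPC.

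Cspg5, or neuroglycan C, is a transmembrane proteoglycan with an EGF-like part. OPC held 1491, 1398, 1346 and 1315 CPM of Cspg5, and astrocytes held 243, 308, 278 and 225 CPM in mice 3, 4, 30 and 34. The OPC mean was 5.26 times that of astrocytes. Microglia came next in mean at 106 ± 54.6 CPM, on 36 UMIs in all, and stood at 59.9 CPM without the highest doublet scores. Tanycytes held 82.6 ± 4.33 CPM, above every sum of oligodendrocytes (50.8 ± 13.1 CPM; SD, n = 4 for each). COP were lowest of the 8 types at 34.1, 40.7, 33.5 and 14.5 CPM, although they lie beside OPC in the lineage.

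Shares of UMIs show where the transcripts lay in these suspensions, and they depend on how many cells of each type the dissociation yielded. Astrocytes held 49.7% ± 10.7 of the Bcan UMIs of a mouse, 45.4% ± 11.1 of the Ncan UMIs and 40.1% ± 8.27 of the Ptprz1 UMIs, against 21.3% ± 4.78 of all UMIs (SD, n = 4 for each). OPC held 6.01% ± 0.878 of all UMIs but 59.0% ± 3.80 of the Acan UMIs, 45.8% ± 3.30 of the Cspg5 UMIs and 36.2% ± 8.21 of the Vcan UMIs. COP, with 5.75% ± 1.71 of all UMIs, held 69.8% ± 7.31 of the Tnr UMIs. Tanycytes held 34.3% ± 4.99 of the Vcan UMIs and 33.0% ± 18.1 of the Hapln1 UMIs.

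**Figure D2:**
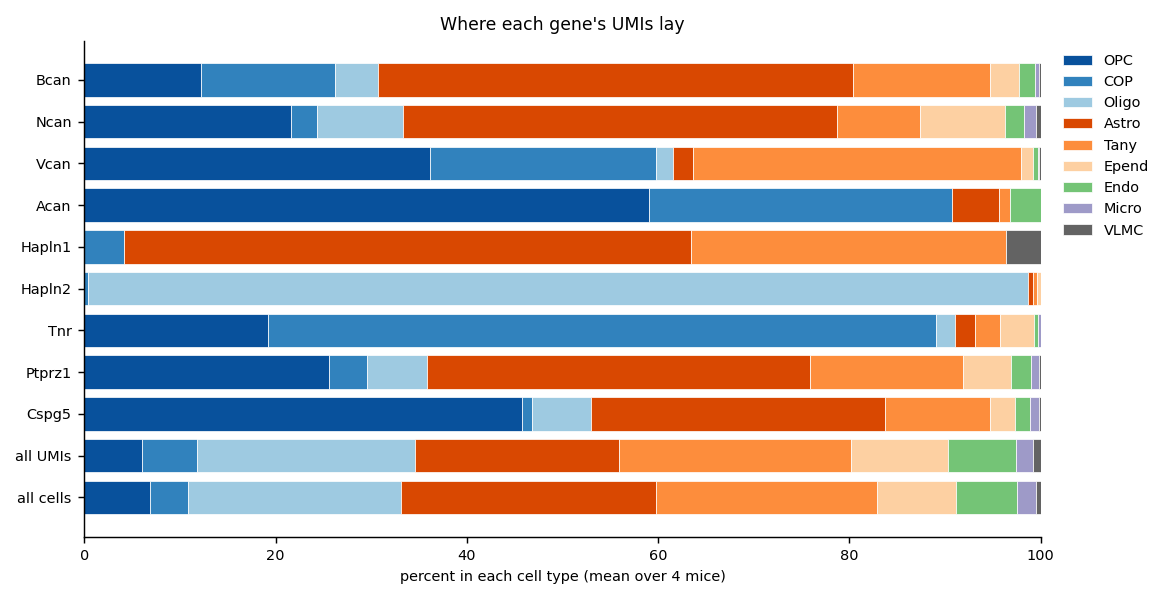
Share of each gene's UMIs found in each of the 9 cell types (x axis, percent, mean of 4 mice), with the shares of all UMIs and of all cells in the lowest bars. Tnr is mostly COP (69.8%), Hapln2 is nearly all oligodendrocytes (98.3%), and Bcan, Ncan and Ptprz1 are led by astrocytes.

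Cells with a UMI were counted after thinning each cell to 500 UMIs, because depth differed between types: the median was 1081 to 2402.5 UMIs in COP and 829.5 to 888 UMIs in astrocytes. Ptprz1 was then seen in 67.4% of OPC, 38.9% of astrocytes, 16.8% of COP and 15.6% of tanycytes (means of 4 mice). Tnr was seen in 65.7% of COP and 23.2% of OPC, and unthinned in 93.5% and 41.8%. Bcan was seen in 39.1% of COP, 37.2% of astrocytes and 33.5% of OPC, and unthinned in 76.5%, 56.5% and 55.7%. Cspg5 was seen in 50.8% of OPC against 1.50% of COP. Endothelial cells, a type outside the glia whose label also held mural cell markers, gave a reference at a median depth of 949 to 1192 UMIs. After thinning, 7.50% of them held a Ptprz1 UMI, 4.41% a Bcan UMI, 2.20% a Cspg5 UMI and 0.42% a Tnr UMI. Bcan in oligodendrocytes (3.59%) and Cspg5 in COP (1.50%) had lower means than these, and so did both among cells thinned to 1000 UMIs, at 7.85% ± 2.17 against 8.10% ± 2.83 and 2.96% ± 1.32 against 4.44% ± 1.57 (SD, n = 4 for each). The ranges over mice overlapped, although in CPM both genes were higher in endothelial cells in 4 of 4 mice. Such shares are not read here as expression. Bcan in microglia (4.13%) and Ptprz1 in oligodendrocytes (7.05%) lay below endothelial cells at 500 UMIs. At 1000 UMIs they lay above them, at 11.3% against 8.10% and 14.3% against 12.9%.

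**Figure D3:**
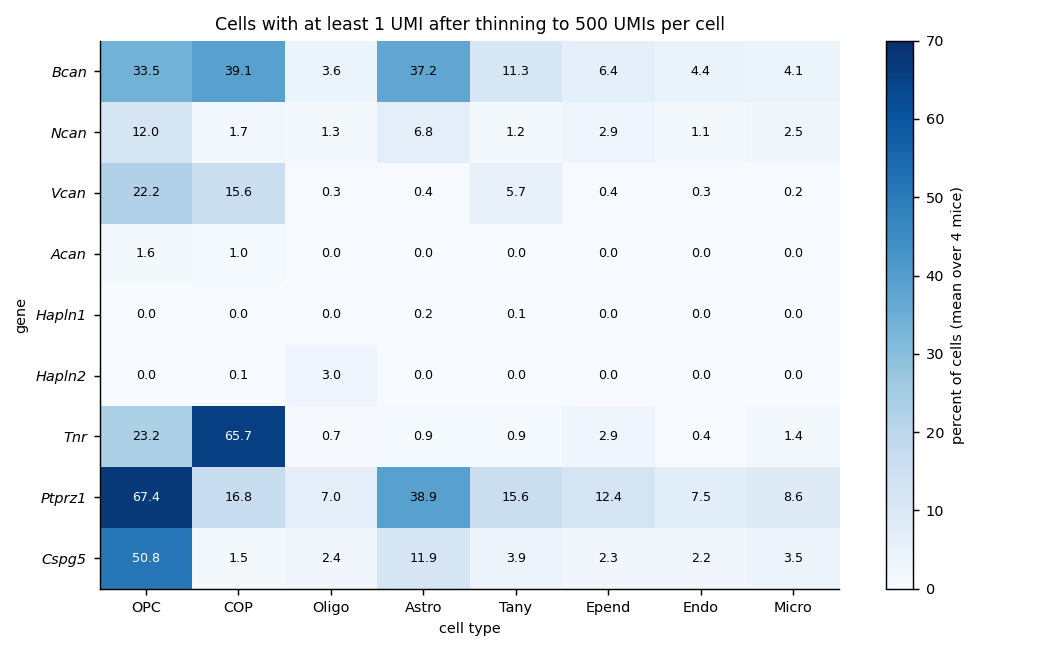
Percent of cells with at least 1 UMI of each gene after every cell was thinned to 500 UMIs, mean of 4 mice, by gene (rows) and cell type (columns), with a darker blue for a higher percent. The highest cells are Ptprz1 in OPC (67.4%), Tnr in COP (65.7%) and Cspg5 in OPC (50.8%).

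Droplets also take up free RNA, which gives UMIs to cells that do not make a gene. The 6 astrocyte markers summed to 2038 to 2539 CPM in endothelial cells and 2578 to 2873 CPM in microglia, and the members abundant in astrocytes and OPC were present in the same cells at low levels. The count of Ptprz1 UMIs per Bcan UMI in the same sum was 0.841 to 1.39 in astrocytes, 2.40 to 3.43 in OPC, 0.315 to 0.519 in COP, 1.61 to 1.80 in endothelial cells and 1.33 to 3.88 in microglia. The part of free RNA in these low levels was not tested.

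Next, types of the same mice were compared in 7 pairs with the edgeR quasi-likelihood test, with the mouse as a block. A gene was called at an adjusted p below 0.05 (Benjamini-Hochberg over all genes tested in the pair) with a log2 fold change that was past 1 in either direction. The authors named the types from the same counts, so calls describe the types. Folds are on the TMM scale, on which the median gene tested lay between -0.02 and 0.03 in each pair. TMM moved the median gene by -0.31 against plain totals in OPC against astrocytes, by 0.28 in oligodendrocytes against COP and by 0.12 in astrocytes against ependymal cells, and by less than 0.1 in the other 4 pairs. Fitted folds therefore differ somewhat from ratios of CPM. Members with too few counts for a pair were not tested in it. In 15 of the 41 tests of a member, the type with the higher level met the filter on low counts in all 4 mice and the other type did not. These were Vcan, Acan and Tnr in OPC against astrocytes, Ncan and Cspg5 in COP against OPC, and Ncan, Vcan, Hapln2, Tnr and Cspg5 in oligodendrocytes against COP. The others were Vcan in astrocytes against tanycytes, Tnr in astrocytes against ependymal cells, Vcan and Tnr in tanycytes against ependymal cells, and Ncan in endothelial cells against astrocytes. Such a member entered through the type where it was high, so its fold is given below with no p. The counts of members called describe those tested, not all 9. A count of 1 among 5 to 7 members tested lies near the share of all genes given beside it. The counts and medians of the lists further on likewise cover only genes that passed the filter.

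**Figure D4:**
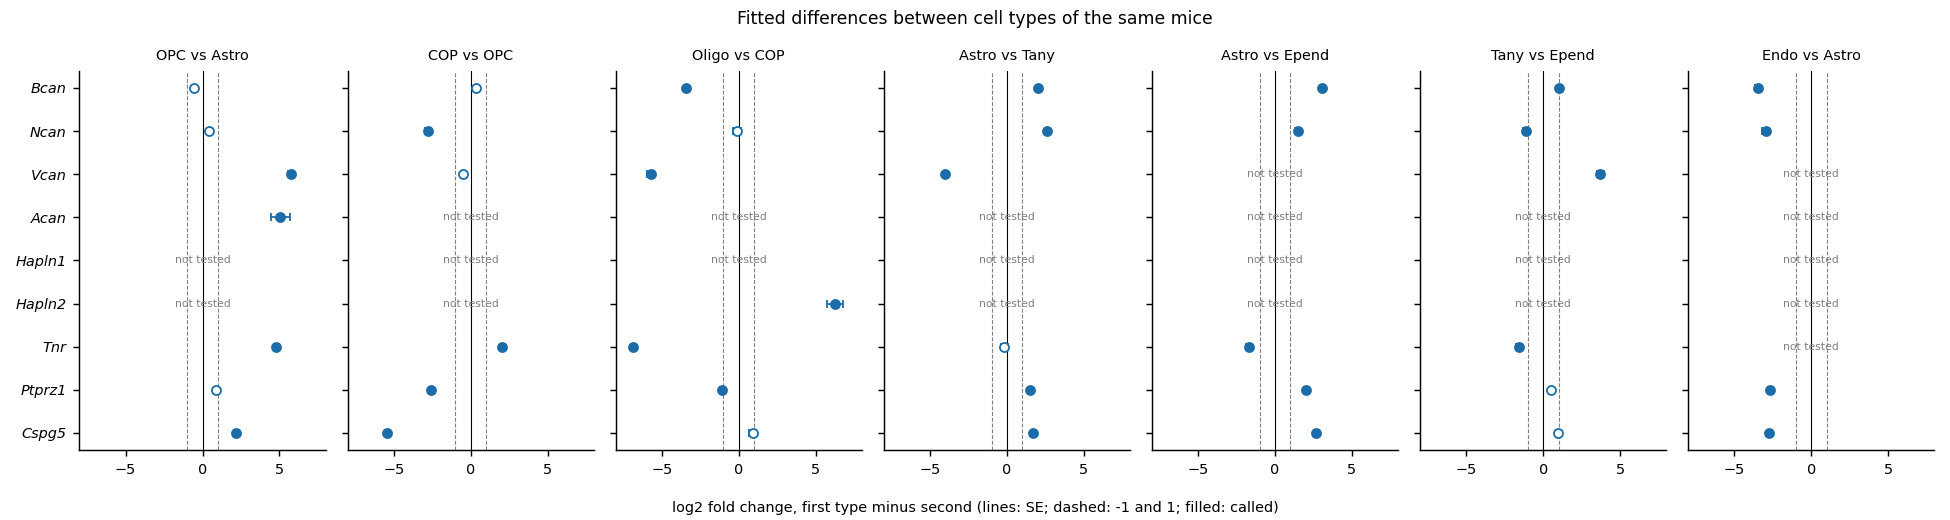
Fitted log2 fold changes (x axis, first type minus second) of the 9 genes (rows) in 7 pairs of cell types of the same 4 mice, with SE as lines, filled points for called genes and dashed lines at -1 and 1. Vcan and Tnr swing most, from 5.73 and 4.80 in OPC against astrocytes to -5.73 and -6.90 in oligodendrocytes against COP.

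OPC and astrocytes, the types with the highest levels of Ncan, Ptprz1 and Cspg5, differed in 4 of the 7 members tested. Vcan was higher in OPC by a log2 fold change of 5.73 ± 0.17 (SE), Tnr by 4.80 ± 0.15 and Cspg5 by 2.14 ± 0.09 (adjusted p 4.85e-30), each in 4 of 4 mice. Like Vcan and Tnr, Acan, with 40 UMIs against 3, was tested only because of its level in OPC. The fitted fold of Acan, 5.05 ± 0.61, is likewise given with no p. It stood at 6.03 without mouse 4 and at 4.42 without mouse 34. No tested member was called lower in OPC by edgeR or by DESeq2, and 1, Bcan, was lower at an unadjusted p below 0.05. Bcan was at -0.55 ± 0.08 with the adjusted p below 0.05 but within the limit of 1, and so were Ncan at 0.42 ± 0.12 and Ptprz1 at 0.89 ± 0.07. For Ncan the adjusted p was 0.0624 by the DESeq2 Wald test, and in cells of at least 1000 UMIs the log2 fold change was 0.04 (edgeR, adjusted p 0.878). Over all 6902 genes tested, 10.9% were called higher and 12.4% lower in OPC.

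COP and OPC, the first step of the oligodendrocyte lineage, differed in 4 of the 6 members tested. Tnr was higher in COP by 2.01 ± 0.07 (adjusted p 2.94e-43, 4 of 4 mice). Cspg5 was lower at a log2 fold change of -5.44 ± 0.14, Ncan at -2.79 ± 0.20 and Ptprz1 at -2.60 ± 0.08 (adjusted p 7.64e-50), each in 4 of 4 mice. Cspg5 and Ncan were tested only because of their levels in OPC, so no p is given for them. Bcan at 0.34 ± 0.08 and Vcan at -0.47 ± 0.11 were not called. Thus 1 of 6 members was called higher, where 10.8% of the 4879 genes tested were, and 3 of 6 lower, where 13.2% of all genes were.

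Oligodendrocytes against COP, the next step, differed in 5 of the 7 members tested. Tnr was at -6.90 ± 0.13, Vcan at -5.73 ± 0.21, Bcan at -3.41 ± 0.11 (adjusted p 1.43e-39) and Ptprz1 at -1.08 ± 0.11 (adjusted p 3.58e-13). All were called lower in oligodendrocytes and were lower in 4 of 4 mice. Tnr and Vcan were tested only because of their levels in COP, so no p is given for them. Without mouse 3 or mouse 34 Ptprz1 stood at -0.93 and -0.998 and missed the limit. Hapln2, with 351 UMIs against 1, was tested only because of its level in oligodendrocytes, and its fitted fold of 6.26 ± 0.53 is given with no p. It stood at 5.68 without mouse 3 and at 8.85 without mouse 4, which held the only Hapln2 UMI of COP. Cspg5 at 0.90 ± 0.24 and Ncan at -0.09 ± 0.27 were not called, and Cspg5 passed the limit at 1.15 without mouse 3. Of 7 members, 1 was higher and 4 were lower, with 13.8% and 13.3% of the 6209 genes tested called higher and lower.

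**Figure D5:**
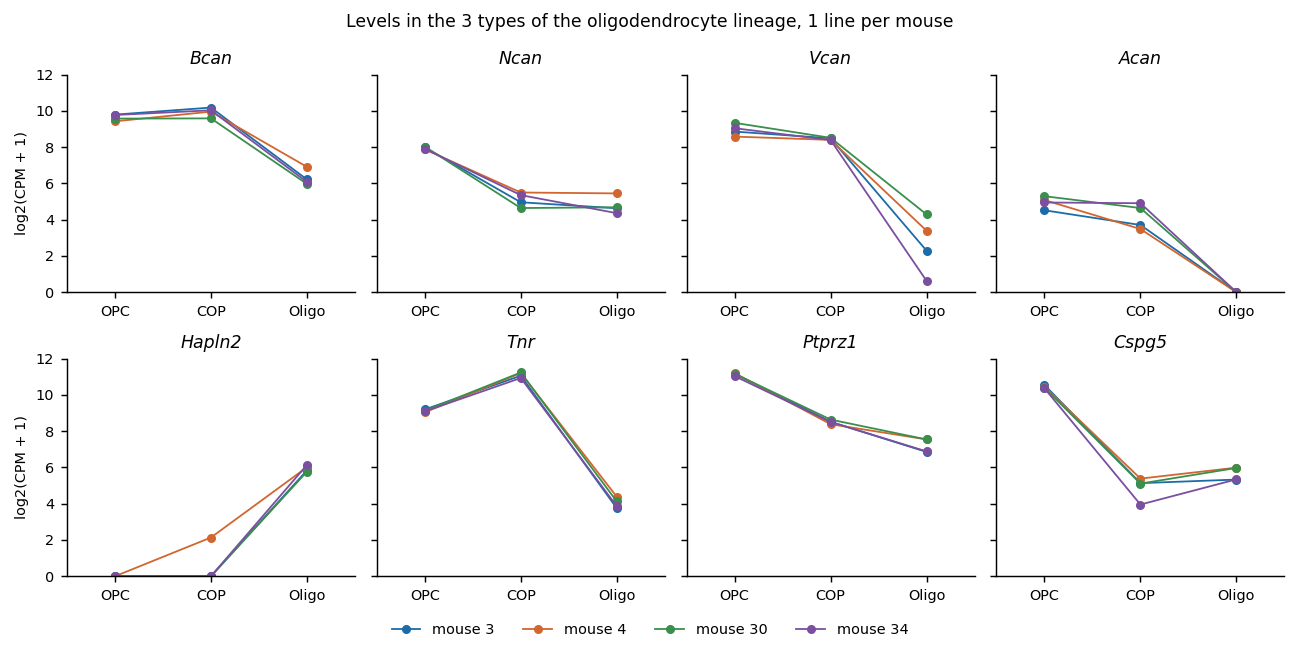
Levels of 8 genes as log2(CPM + 1) (y axis) in OPC, COP and oligodendrocytes (x axis), with 1 line per mouse. Cspg5, Ncan and Ptprz1 are lower from OPC to COP, Tnr peaks in COP, Bcan and Vcan drop from COP to oligodendrocytes, and Hapln2 appears in oligodendrocytes.

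Astrocytes were then set against tanycytes, the elongated cells lining the floor of the ventricle that share much of the astrocyte programme. Ncan was higher in astrocytes by 2.59 ± 0.13 (adjusted p 5.53e-19), Bcan by 2.01 ± 0.08 (adjusted p 1.64e-22), Cspg5 by 1.67 ± 0.10 (adjusted p 8.3e-17) and Ptprz1 by 1.53 ± 0.08 (adjusted p 2.19e-19). Vcan went the other way, at -4.00 ± 0.18, and was lower in astrocytes in 4 of 4 mice. It was tested only because of its level in tanycytes, so no p is given. Tnr, at -0.16 ± 0.25, was not called and changed sign without mouse 3 or mouse 34. Of 6 members tested, 4 were higher and 1 lower, while 11.0% of the 10081 genes tested were higher and 10.1% lower in astrocytes.

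Against ependymal cells, which carry motile cilia and line the ventricle, astrocytes held more Bcan (3.08 ± 0.13, adjusted p 7e-14), Cspg5 (2.67 ± 0.15, adjusted p 7.83e-12), Ptprz1 (2.02 ± 0.11, adjusted p 3.92e-12) and Ncan (1.47 ± 0.15, adjusted p 4.65e-08). Tnr was lower in astrocytes, at -1.69 ± 0.22 (4 of 4 mice), with no p given because it was tested only through its level in ependymal cells. All 5 members tested were called, 4 higher and 1 lower, where 14.3% of 8371 genes were higher and 17.6% lower.

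Tanycytes and ependymal cells, neighbours on the ventricle, differed in 4 of the 6 members tested. Vcan was higher in tanycytes by 3.72 ± 0.23 and Bcan by 1.06 ± 0.11 (adjusted p 1.37e-10). Tnr was lower at -1.57 ± 0.22 and Ncan at -1.11 ± 0.19 (adjusted p 3.03e-06). Vcan and Tnr were each tested only because of the type where they were high, so no p is given for them. Cspg5 at 0.99 ± 0.17 and Ptprz1 at 0.48 ± 0.10 were not called. Bcan and Cspg5 lay so near the limit that Bcan fell below it without mouse 34 (0.94), and Cspg5 passed it without mouse 3 (1.02) or mouse 30 (1.12). Ncan missed it in cells of at least 1000 UMIs (-0.97), and Cspg5 passed it with DESeq2 size factors, by the DESeq2 Wald test, without the filter on low counts (1.02) and with sums thinned to equal totals (1.10). With 2 of 6 members higher and 2 lower, the shares over all 8781 genes were 6.73% and 13.1%.

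Endothelial cells against astrocytes were the comparison with a type outside the glia. All 4 members tested were lower in endothelial cells: Bcan at -3.49 ± 0.14 (adjusted p 5.14e-32), Ncan at -2.96 ± 0.21, Cspg5 at -2.73 ± 0.16 (adjusted p 8.2e-23) and Ptprz1 at -2.70 ± 0.12 (adjusted p 2.07e-29). Ncan was tested only because of its level in astrocytes, so no p is given for it. None was higher by edgeR, by DESeq2 or at an unadjusted p below 0.05. Over 7616 genes, 17.2% were higher and 17.8% lower in endothelial cells.

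The other genes of the pathway are described by 5 lists, with levels as means of 4 mice, and each count of a list is to be read beside the share of all genes called in the same pair and direction. Those shares, higher and then lower in the first type, were 10.9% and 12.4% in OPC against astrocytes, 10.8% and 13.2% in COP against OPC, and 13.8% and 13.3% in oligodendrocytes against COP. They were 11.0% and 10.1% in astrocytes against tanycytes, 14.3% and 17.6% in astrocytes against ependymal cells, 6.73% and 13.1% in tanycytes against ependymal cells, and 17.2% and 17.8% in endothelial cells against astrocytes. A count of 1 among 7 to 14 genes tested lies near such shares, and no count of a list was tested against them.

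Proteoglycans need enzymes that build their chains, and 9 of 22 such genes could be tested in OPC against astrocytes. Xylt1, which adds the first sugar of the chain, stood at 447 CPM in OPC and 70.9 CPM in astrocytes (log2 fold change 2.30 ± 0.12), and Chst11, a chondroitin 4-sulfotransferase, at 150 and 23.1 CPM (2.35 ± 0.18). In all, 3 of the 9 were called higher and 1, Csgalnact1, lower in OPC, with a median of 0.29, beside 10.9% and 12.4% of all genes, so that the 1 lower gene lies near the share of all genes. In COP against OPC, 3 of 7 were higher and 3 lower (median 0.46). Ust, which sulfates uronic acids in the chain, was at 520 CPM in COP and 40.2 CPM in OPC (3.78 ± 0.16), and Csgalnact1, which starts the chondroitin polymer, rose by 2.05 ± 0.23, while Chst11 was at -3.04 ± 0.26 and Xylt1 at -1.67 ± 0.13. In oligodendrocytes against COP, 4 of 6 were lower and 0 higher (median -3.34), led by Ust at -5.58 ± 0.16 and Csgalnact1 at -4.12 ± 0.27. Astrocytes exceeded tanycytes in 3 of 14 (Csgalnact1 at 2.26 and Xylt1 at 2.14 among them; 0 lower, median 0.17) and ependymal cells in 3 of 10 with 1 lower (median 0.19). Between tanycytes and ependymal cells edgeR and DESeq2 called 0 of 9 (median -0.16), with 1 higher and 3 lower in tanycytes at an unadjusted p below 0.05, and endothelial cells were lower than astrocytes in 4 of 9 (0 higher, median -0.70).

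Hyaluronan is the thread on which lecticans are strung, and 11 of the 14 genes listed for its synthesis, breakdown and binding were in the table. Has2, a hyaluronan synthase, was at 9.61 CPM or below in each type, and Has1 and Has3 were not among the genes listed (these are named for their role, after their values were seen). Itih3, a heavy chain that is transferred onto hyaluronan, stood at 2265 CPM in astrocytes against 228 CPM in OPC (log2 fold change -3.66 ± 0.11 in OPC) and 139 CPM in tanycytes (4.06 ± 0.09 in astrocytes). Tnfaip6, the enzyme of that transfer, was at 284 CPM in oligodendrocytes and 4.67 CPM in COP (5.98 ± 0.25). Cd44, a hyaluronan receptor, was lower in astrocytes than in tanycytes (-2.85 ± 0.20) and ependymal cells (-2.40 ± 0.25). With 1 to 7 genes tested in a pair, against 6.73% to 17.8% of all genes called in a direction, the counts called higher and lower in the first type of the pair were 0 and 2 of 3 in OPC against astrocytes (median -1.85), 0 and 0 of 1 in COP against OPC (-0.81), 2 and 0 of 3 in oligodendrocytes against COP (1.68), 2 and 1 of 7 in astrocytes against tanycytes (0.20), 1 and 2 of 5 in astrocytes against ependymal cells (-0.01), 0 and 2 of 5 in tanycytes against ependymal cells (0.14) and 3 and 1 of 4 in endothelial cells against astrocytes (2.43).

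Other proteoglycans and partners of the net moved in both directions. Cspg4, the NG2 proteoglycan that marks OPC, stood at 371 CPM in OPC, 20.4 CPM in COP and 4.41 CPM in astrocytes, with log2 fold changes of 6.67 ± 0.22 in OPC against astrocytes and -4.12 ± 0.20 in COP against OPC. Cntn1, a contactin that binds both Tnr and Ptprz1, was at 1052 CPM in OPC and 164 CPM in astrocytes (2.44 ± 0.10). Ptn, the pleiotrophin that binds Ptprz1, was at 2950 CPM in OPC, 215 CPM in COP (-3.75 ± 0.08) and 1331 CPM in oligodendrocytes (2.91 ± 0.10 against COP). The counts higher and lower in the first type were 3 and 2 of 7 in OPC against astrocytes (median 0.05), 0 and 4 of 6 in COP against OPC (-2.63) and 1 and 2 of 5 in oligodendrocytes against COP (0.28). On the ventricle, they were 3 and 2 of 8 in astrocytes against tanycytes (0.44), 5 and 1 of 7 in astrocytes against ependymal cells (1.29) and 3 and 1 of 6 in tanycytes against ependymal cells (1.14). In endothelial cells against astrocytes they were 4 and 6 of 11 (-1.07), with Srgn, the proteoglycan of secretory granules, at 6.88 ± 0.21.

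The list of receptors was shorter and held more than receptors for these chains. Ptprs, a receptor phosphatase that binds chondroitin sulfate, stood at 337 CPM in OPC, 302 CPM in COP and 43.9 CPM in oligodendrocytes, with log2 fold changes of 1.04 ± 0.11 in OPC against astrocytes and -2.64 ± 0.14 in oligodendrocytes against COP. Egfr was higher in astrocytes than in OPC (-2.57 ± 0.30 in OPC), tanycytes (4.06 ± 0.25) and ependymal cells (4.36 ± 0.38). The counts higher and lower were 2 and 1 of 4 in OPC against astrocytes (median 0.26), 1 and 1 of 3 in COP against OPC (-0.12), 1 and 2 of 3 in oligodendrocytes against COP (-1.17), 1 and 0 of 4 in astrocytes against tanycytes (0.62), 1 and 0 of 4 in astrocytes against ependymal cells (0.07), 0 and 1 of 3 in tanycytes against ependymal cells (-0.85) and 1 and 3 of 4 in endothelial cells against astrocytes (-1.90).

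The last list held proteases that cut the matrix and their inhibitors. Adamts4, an aggrecanase that cleaves brevican, stood at 137 CPM in COP, 104 CPM in oligodendrocytes and 4.40 CPM in OPC. Its log2 fold change in COP against OPC was 4.68 ± 0.33. Mmp16, a membrane-bound metalloproteinase, was at 200 CPM in OPC and 9.35 CPM in COP (-4.57 ± 0.28). Timp4, an inhibitor of metalloproteinases, fell from 336 CPM in COP to 54.5 CPM in oligodendrocytes (-2.28 ± 0.13). The counts higher and lower were 3 and 5 of 9 in OPC against astrocytes (median -1.02; 10.9% and 12.4% of all genes), 1 and 4 of 7 in COP against OPC (-1.03; 10.8% and 13.2% of all genes), 1 and 1 of 5 in oligodendrocytes against COP (-0.10), 6 and 3 of 9 in astrocytes against tanycytes (1.45), 3 and 2 of 6 in astrocytes against ependymal cells (0.58), 0 and 3 of 8 in tanycytes against ependymal cells (0.07) and 2 and 3 of 7 in endothelial cells against astrocytes (-0.24). Wherever edgeR called 0 genes of any of the 5 lists in a direction, DESeq2 also called 0. At an unadjusted p below 0.05, those directions held 3 genes of chain synthesis lower in astrocytes than in tanycytes, 2 partners higher in COP than in OPC, 2 receptors lower in astrocytes than in ependymal cells, 2 proteases or inhibitors higher in tanycytes than in ependymal cells, 1 hyaluronan gene lower in COP than in OPC, and otherwise those of chain synthesis given above.

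Genes whose levels followed each member most closely were found from Pearson's r of log2(mean CPM + 1) over the 8 types, among 6580 genes that reached 50 CPM in at least 1 type. With 8 points that share mice and libraries, these values only describe likeness. Bcan was most like Apba2 (r = 0.98), Dlgap1 and Lsamp, Ncan most like Ppp1r14c (0.97), Serpine2 and Syn2, and Vcan most like Prmt1 (0.97), Slc35f1 and Nlgn2. Acan was nearest to Neu4 (0.97), Gtf2a2 and Acap3, and Hapln1 to Gcsh (0.93), Cyp4f15 and Ivd. Hapln2 was nearest to Nkain2 (0.98), Cntn2 and Wfdc18. Vapa and D630045J12Rik (0.97 for each) were among the genes most like Tnr. Ptprz1 was nearest to Syn2 (0.98), Fabp7 and Dclk2, and Cspg5 to Kcnip3 (0.98), Etv5 and Zwint. Among the members themselves, the closest pairs were Ncan with Ptprz1 (0.89), Ptprz1 with Cspg5 (0.89) and Ncan with Cspg5 (0.88), followed by Acan with Tnr (0.85).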

How the data were processed

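The authors deposited raw counts of UMIs per gene and cell, from droplet libraries (Chromium 3' v2 chemistry), with a mouse and a cell type for each cell. The submitters' processing notes name Cell Ranger 1.2, Seurat and the builds GRCm38, mm10 and GRCh38, without their roles. Per the labels each mouse was 1 sample of 1 group. A doublet score, deposited as a fraction for each cell, was used only for an alternative. Counts of all genes in a cell summed to the total the authors listed in all 20151 cells. The table also held 50172 cells of 12 libraries outside the labelled samples, which were not used here.

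The counts were summed per mouse and type, and CPM was taken over all UMIs of a sum. Types needed 20 cells in every mouse to be compared. Pairs of types were fitted in R 4.3.3 with edgeR 4.0.16 (glmQLFit and glmQLFTest, TMM, filterByExpr, mouse as a block, two-sided), over all genes that passed the filter. The block rests on both sums of a pair coming from the same animal. Standard errors were derived from the F statistic. The comparison was checked on simulated data. Cells were thinned by the hypergeometric expectation, leaving out cells below the depth used, to 500 UMIs and, as an alternative, to 1000 UMIs. Alternatives were DESeq2 1.42.0 size factors and its Wald test, plain totals, no filter, no block, a joint fit, equal totals, cells of at least 1000 UMIs, leaving out the 10% of cells with the highest doublet score, and leaving out each mouse. Doublets were not otherwise removed here.

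Named genes were all members, at most 2 called genes per direction, list and pair by size of fold, the 3 genes most like each member (1 is not reported here), and link protein genes beside a member. The members and lists were chosen with earlier results of these data known. Positions and sequences are from RefSeq (GRCm38.p6), and strands from GENCODE vM21. Figures were drawn with matplotlib 3.10.9.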

Additional observations from a re-analysis of the deposited data

Results flagged for a closer look

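Levels of a member in 4 mice were screened for a mouse far from the other 3, in the 47 combinations of gene and type with enough UMIs, and 2 had such a mouse. Chance alone gives about 5% of such groups. Bcan in tanycytes stood at 178 CPM in mouse 30, against 259, 257 and 268 CPM in mice 3, 4 and 34. Mouse 30 also had the lowest Bcan in astrocytes and COP, at 732 and 766 CPM. Bcan in endothelial cells stood at 121 CPM in mouse 4, against 87.4, 83.5 and 81.8 CPM in mice 3, 30 and 34. Mouse 4 also had the highest Bcan in oligodendrocytes and microglia, at 119 and 156 CPM.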

How the results depend on the processing

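The number of members called stayed within 1.5 times its reported value in all 91 fits of the 7 pairs under the alternatives. Of 527 fitted folds of members under the alternatives, 511 kept direction and side of the limit, 8 passed it newly, 5 missed it and 3 changed sign. The block changed no call of a member: without the replicate block the paired pairs of types gave 41 folds on the same side. The sign changed for Ncan in oligodendrocytes against COP (-0.25 to 0.094 with a mouse left out; 0.094 without mouse 34) and for Tnr in astrocytes against tanycytes (-0.50 to 0.12; 0.05 without mouse 3 and 0.12 without mouse 34). Neither was called. Scaling by totals alone, chosen after seeing the data, gave 1.19 for Ptprz1 in OPC against astrocytes, which passes the limit, and 0.97 for Bcan in tanycytes against ependymal cells, which misses it. The number of genes called rose without the filter on low counts, to 2725 in OPC against astrocytes, 2301 in COP against OPC and 2594 in oligodendrocytes against COP, where more genes were tested, and to 2132 in COP against OPC in the joint fit over 8 types. With sums thinned to equal totals it fell to 1039 in OPC against astrocytes, 1056 in oligodendrocytes against COP, 1331 in astrocytes against tanycytes, 1124 in tanycytes against ependymal cells and 1495 in endothelial cells against astrocytes, on fewer UMIs. Mean levels under the alternatives moved by 1 SD between mice or less in 426 cases and by more in 6. Leaving out 1 of 4 mice cannot move a mean by 1 SD, so those cases are no test of it. In cells of at least 1000 UMIs 4 levels moved and 68 did not. Without the highest doublet scores 2 moved and 70 did not. The share of cells with a UMI, thinned to 1000 in place of 500 UMIs, moved by more than 1 SD for 57 of 72 combinations of gene and type, for example from 37.2% to 59.3% for Bcan in astrocytes and from 4.41% to 8.10% in endothelial cells. In cells of at least 1000 UMIs Ncan in OPC stood at 204 CPM and Hapln1 in astrocytes at 9.29 CPM. Acan in OPC against astrocytes did not pass the low count filter with equal totals, without the highest doublet scores or in cells of at least 1000 UMIs, so it has no fold there. Hapln2 in oligodendrocytes against COP was 5.32 and Tnr -7.90 with equal totals. Few UMIs leave wide intervals for Acan and Hapln1, 0.983 to 2.99 for the pooled ratio of Acan in OPC to COP and 0.856 to 3.08 for that of Hapln1 in astrocytes to tanycytes, and both lay above 1 without mouse 34, a setting added for these ratios after seeing the data.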
